A study of Mus musculus with 25 samples.

Results

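CD8+ T cells taken from B16F10 tumours, a transplantable mouse melanoma, were compared between Prdm1/c-Maf cDKO animals, which lack Prdm1 and c-Maf together, and wild type (WT). Of the 25 bulk RNA sequencing libraries of the series, 8 enter this comparison: the 3 cDKO libraries C2, A1 and A2, and the 5 WT libraries B1, B2, B3, B4 and B6, whose columns stand next to them in the deposited table. The other 11 WT, 3 Prdm1 cKO and 3 c-Maf cKO libraries serve only where named. A cKO is a conditional knockout, and a cDKO removes a pair of genes. All animals were of the C57BL/6 strain, and the labels name no agent given to any group. The sources used here do not give the promoter that drives the deletion, the age of the animals or whether a library stands for a single animal. The p-values therefore reflect variation among libraries, which may be technical. All 5 WT codes carry the letter B and the cDKO codes the letters A and C, so this letter and the genotype cannot be told apart.

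Prdm1 encodes Blimp-1, a zinc finger repressor that drives effector differentiation of lymphocytes and represses genes of the naive and memory state. Maf encodes c-Maf, a basic leucine zipper factor that promotes IL-10 in T cells. In tumours, CD8+ T cells exposed to persistent antigen gain inhibitory receptors such as Tim-3 and Lag-3 and lose part of their function, a state called exhaustion, while a TCF-1 expressing stem-like pool sustains them. The title and design text of the series ask what gene signature CD8+ T cells show in tumours when these factors are missing.

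In cDKO libraries Gzmb, Prf1 and Gzma of granule killing, the co-inhibitory genes Havcr2, Lag3 and Cd200 and the chemokine genes Ccl3, Ccl4 and Ccl5 were lower. Higher were 8 of 16 tested naive and stem-like transcription factors, 37 of 84 cytosolic ribosomal protein genes, and Ccr7, S1pr1 and Il7r. Of 23366 gene symbols, 11058 reached a signal of 1 in 3 or more of the 8 libraries and were tested by limma on log2(signal + 1); the other 12308 were not tested, and 4394 of them were at 0 in all 8. A gene is called at a Benjamini-Hochberg adjusted p under 0.05, and a log2 fold change is cDKO minus WT with its standard error (SE). In all, 341 genes (3.08% of those tested) were called, 237 of them higher in cDKO (2.14%) and 104 lower (0.94%). The change exceeded 2-fold for 164 of the higher and 74 of the lower genes. In 339 of the 341 the 3 cDKO values did not overlap the 5 WT values. Lack of overlap was part of the rule that named the largest changes, so for those genes it adds no support. Over all tested genes, 860 (7.78%) lay wholly above and 637 (5.76%) wholly below WT, and the median log2 fold change was -0.03.

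**Figure D1:**
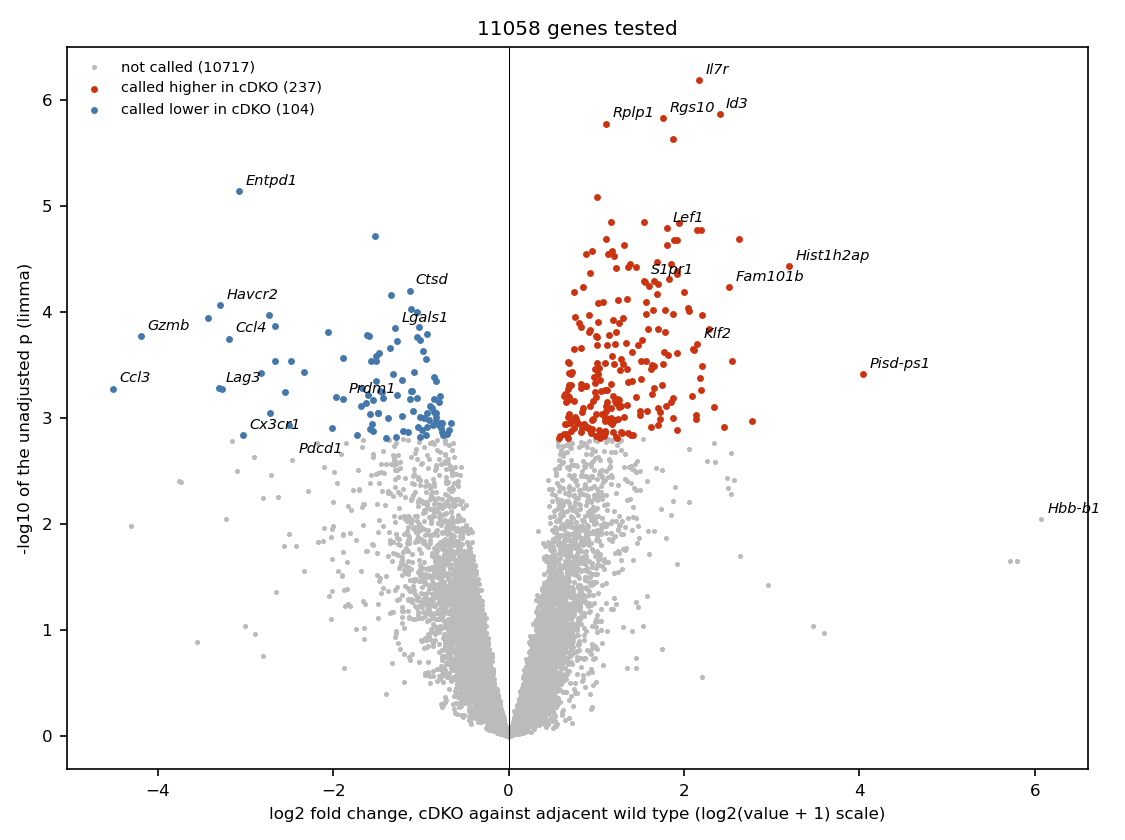
Each point is 1 of the 11058 tested genes, placed by its log2 fold change between cDKO (n = 3) and adjacent WT (n = 5) libraries and by -log10 of limma's unadjusted p. The 237 genes called higher are red, the 104 called lower are blue and the rest are grey; Ccl3 and Gzmb lie furthest to the left among the called genes, and Il7r has the smallest p.

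The number of calls rested on single libraries. Without A2 it was 3 and without A1 it was 8. It was 32 without B2, 130 without B1, 165 without B4, 169 without B6, 470 without C2 and 772 without B3. The genes still called without A2 were Rgs10, Il7r and Id3. Without A1 they were these 3 and Bcl2, Ssh2, Rplp1, Rps27 and Cd163l1. Of the 341 genes, 340 kept their sign in each of 20 alternative analyses in which they could be fitted. The exception, Odc1, is described with its values below. For the 339 genes without overlap, leaving out a library or changing the pseudocount, filter or limma options could not turn the sign. Those settings were therefore no test of direction. Rescaling the libraries to equal CD3 genes moved the median of all genes to 0.36 and left 29 calls, 13 higher and 16 lower. With the mean erythroid marker level as a covariate limma called 0 genes, with 1166 at an unadjusted p under 0.05 against 2111 without it.

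**Figure D2:**
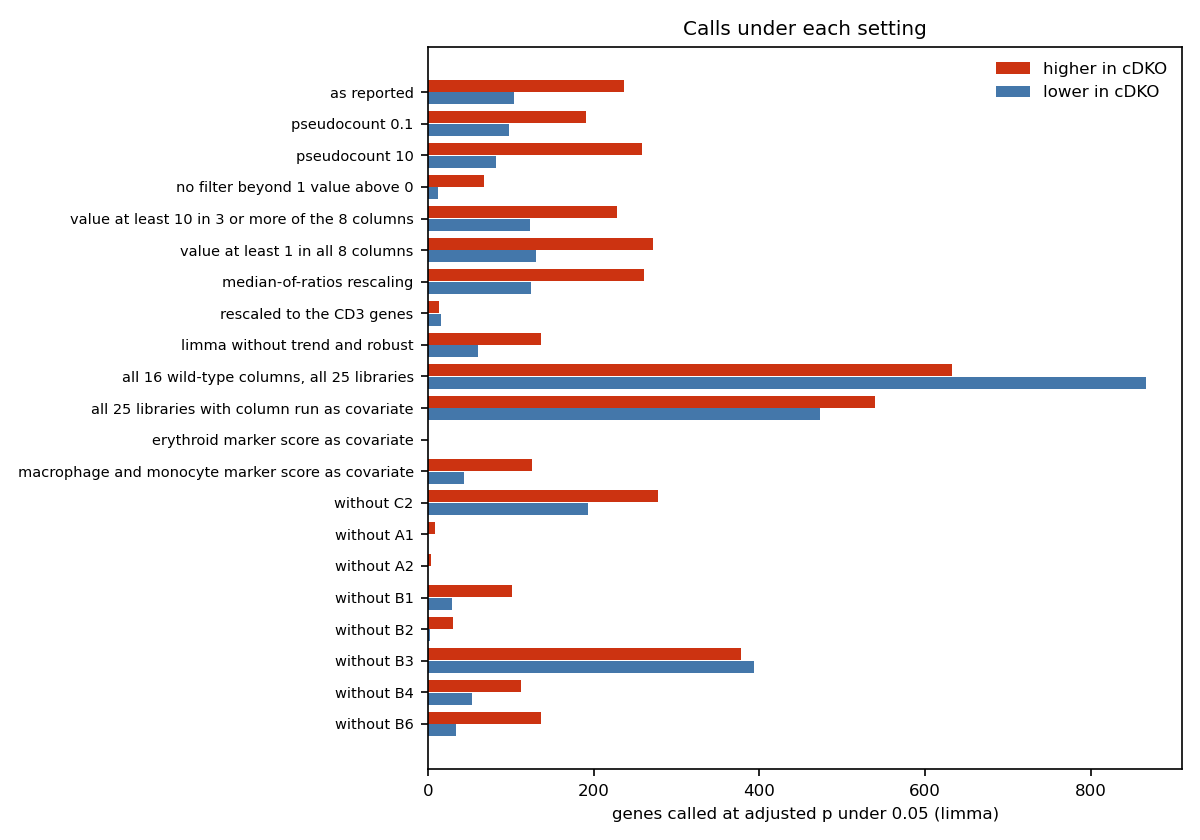
Bars give the number of genes called higher (red) and lower (blue) in cDKO by limma at an adjusted p under 0.05, as reported and under each of 20 alternatives. The bars of the fits without A1, without A2, without B2, with the CD3 scaling and with the erythroid covariate are far shorter than the 237 and 104 as reported, and the bars without B3 or in the fits of all 25 libraries are longer.

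Library quality and cell content differed within the groups. Summed signal ran from 389650 to 475956 per library and genes above 0 from 13513 to 15141. The values are not counts and sequencing depth is unknown. The ribosomal RNA gene Rn45s made up 15, 16.1 and 15.9% of the sum in C2, A1 and A2. In WT it made up 11.9 to 14.2%, except 17.3% in B3. Across the tested genes, A1 and A2 correlated at a Pearson r of 0.961, and C2 with either at 0.894 and 0.895. The WT library B3 correlated with A1 at 0.921 and with the WT library B6 at 0.834. B3 also lay beside A1 and A2 on the first principal component (37.2 against 46.4 and 44.1), while C2 lay among the WT (-19.8). This component held 40.4% of the variance. On the second (22.5%) the groups did not overlap, with cDKO at 14.3 to 38.9 and WT at -41.5 to 9.06. The 8 T cell markers found in the table summed to 1200 in B3, 1430 in A1 and 1680 in A2, against 2360 to 3410 in the other 4 WT libraries and 2640 in C2. Cd8a was 70.05 in A1, 81.83 in A2 and 77.99 in B3, and 168.14 to 244.42 in the other 5 libraries; in bulk samples fewer cells of a type and less RNA per cell cannot be told apart.

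Markers of other cells were present in both groups. The 8 erythroid markers summed to 463, 2300 and 4280 in cDKO (C2, A1, A2) and to 2.16 to 41.1 in WT, except 1580 in B4. Haemoglobin beta Hbb-b1 was 79.8, 238.09 and 435.56 in cDKO, 132.43 in B4 and at most 0.9 in the other 4 WT libraries (log2 fold change 6.07 ± 1.72, adjusted p = 0.117). Of the 7 erythroid markers tested, all were higher in cDKO on average and 1, Slc4a1, the anion exchanger of red cells, was called (2.55 ± 0.48, adjusted p = 0.0256), against 2.14% of all genes. Slc4a1 was at most 0.44 in WT and was tested only because its cDKO values reached 1, so its direction was fixed by the filter. Melanoma markers summed to 127 to 1730 in cDKO and 8.97 to 3940 in WT, with B3 highest. Macrophage and monocyte markers other than Ly6c2, which CD8+ T cells also make, summed to 156 to 279 against 96.8 to 682. The NK list other than Gzma and Nkg7, which CD8+ T cells also make, summed to 10.1 to 12.6 against 4.09 to 18.1. B and plasma cell markers summed to 11.3 to 14.2 against 1.96 to 25.2, dendritic cell markers to 113 to 389 against 116 to 548, and CD4 and regulatory T cell markers to 36.8 to 60.2 against 47.7 to 110. Gamma delta T cell markers stayed at or under 0.74, neutrophil markers at or under 7.14 and fibroblast and endothelial markers at or under 19.2. Platelet markers stayed at or under 1.6 in cDKO and reached 98.5 in B3. The part of these cells in the gene results was not tested beyond the covariate fits.

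**Figure D3:**
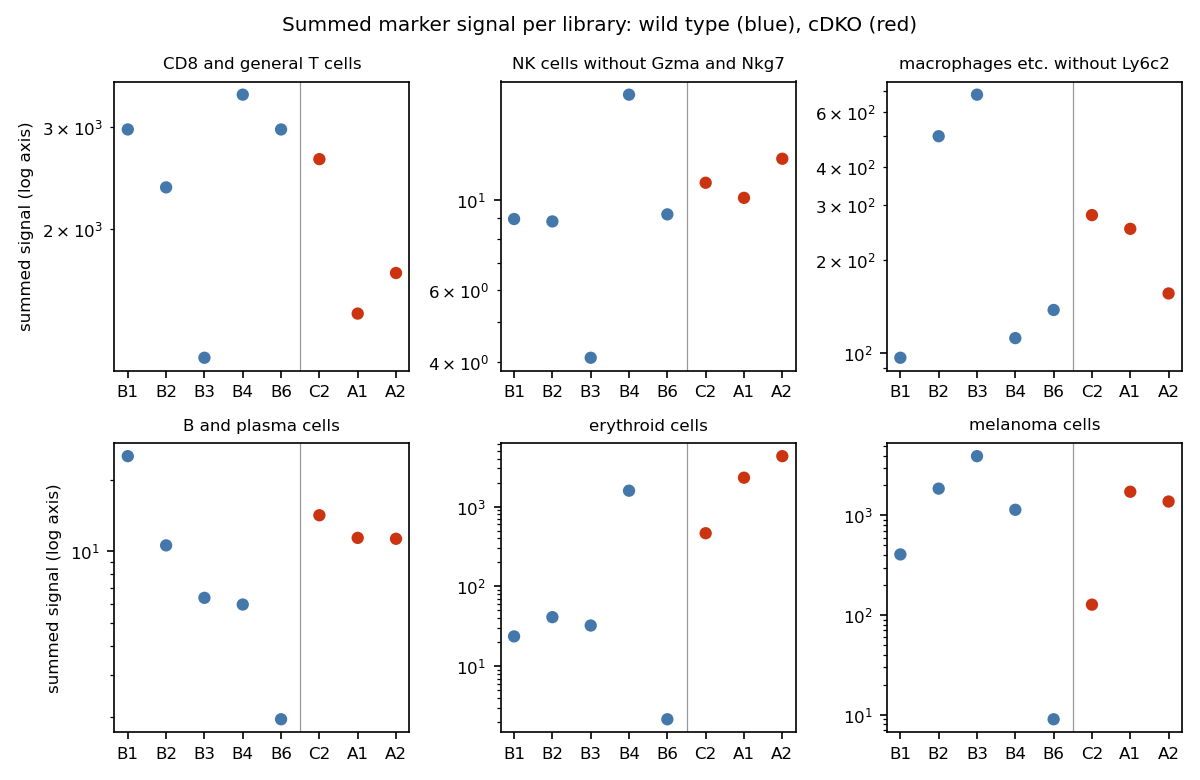
Each panel shows the summed signal of a marker list (log axis) in the 5 WT libraries (blue) and the 3 cDKO libraries (red). Erythroid markers are high in the 3 cDKO libraries (463 to 4280) and in B4 (1580), and T cell markers are lowest in B3, A1 and A2 (1200 to 1680).

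The targeted genes were read first as a check of the labels. Prdm1 signal was 21.73, 14.03, 6.45, 11.13 and 16 in B1, B2, B3, B4 and B6, and 4.69, 1.18 and 3.27 in C2, A1 and A2. All 3 cDKO values lay below all WT values. The cDKO mean of 3.05 ± 1.77 (SD, n = 3) was 22% of the WT mean of 13.9 ± 5.68 (n = 5; exact two-sided permutation p = 0.0357 over 56 splits, where 0.0179 is the smallest possible). Leaving out any library but B3 brought this p to between 0.0571 and 0.0952. Maf was low throughout, at 0.03, 0.59, 0.79, 0.49 and 0.2 in WT and 0, 0.18 and 0.03 in cDKO, and the groups overlapped at B1 (0.42 ± 0.305 against 0.07 ± 0.0964, exact permutation p = 0.107). A Maf level this near the lower end of the scale was a weak check of the label.

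Granzymes A and B and perforin fell. Gzmb, encoding granzyme B, a protease that kills target cells, was 466.3, 288.6, 114.2, 516.9 and 529.9 in B1, B2, B3, B4 and B6. In C2, A1 and A2 it was 47.33, 8.49 and 12.47. The groups did not overlap, with the lowest WT value in B3 and the highest cDKO value in C2 (log2 fold change -4.19 ± 0.65, adjusted p = 0.0208). Prf1, encoding the pore-forming perforin, averaged 171 ± 133 in WT and 13.3 ± 4.2 in cDKO (-3.27 ± 0.61, adjusted p = 0.0336), and Gzma, encoding granzyme A, 144 and 26.5 (-2.55 ± 0.50, adjusted p = 0.0342). Lamp1, encoding a lysosomal membrane protein that reaches the cell surface on degranulation, was higher, at 10.07 to 36.16 in cDKO and 2.55 to 9.94 in WT (1.92 ± 0.44, adjusted p = 0.0466). Among 20 tested genes of granule contents and release, 3 fell (0.94% of all genes did) and 1 rose (2.14% did), with a median log2 fold change of -1.33 against -0.03 over all genes. NK cells also make Gzma and Gzmb; their own markers summed as given above. Of these 4 calls, 0 remained without A1, without A2 or without B2, 1 each without B1, B4 or B6, and 3 with the CD3 scaling. In the limma fit of 25 libraries against all 16 WT, 3 remained and Lamp1 did not (adjusted p = 0.794).

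The Gzmb promoter is shown for the called granule gene with the largest change, with a search for TGCTGA, the core of the Maf recognition element, and the Blimp-1 core GNGAAAG on both strands. The window around the annotated start comes from RefSeq's table for GRCm38.p6 and lies at chr14:56262285-56262584 on the minus strand; capitals mark a TGCTGA match read on the opposite strand. The Gzmb window holds 1 match to TGCTGA and 0 to GNGAAAG. The window for Havcr2 (chr11:46454681-46454980, plus strand), encoding Tim-3, is printed beside it and holds neither motif. The window of Prf1 and the first of 2 windows of Entpd1 were searched as well and hold neither. The other Entpd1 window is not described here. Among 32851 promoter windows of 300 bases, 19.5% held TGCTGA and 22.6% GNGAAAG.
Gzmb: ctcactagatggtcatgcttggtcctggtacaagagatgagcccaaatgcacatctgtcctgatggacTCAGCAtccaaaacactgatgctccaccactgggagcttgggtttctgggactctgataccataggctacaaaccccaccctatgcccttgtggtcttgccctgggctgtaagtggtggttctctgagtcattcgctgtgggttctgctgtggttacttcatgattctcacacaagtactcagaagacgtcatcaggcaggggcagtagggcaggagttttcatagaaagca
Havcr2: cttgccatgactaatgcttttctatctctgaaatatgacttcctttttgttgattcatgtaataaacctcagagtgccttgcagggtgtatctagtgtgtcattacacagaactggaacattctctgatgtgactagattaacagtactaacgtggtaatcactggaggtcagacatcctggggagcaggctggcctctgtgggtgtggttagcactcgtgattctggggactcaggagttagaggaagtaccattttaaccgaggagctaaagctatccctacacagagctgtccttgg

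The genes of 3 co-inhibitory molecules and of the ectoenzyme CD39 fell. Havcr2, encoding the inhibitory receptor Tim-3, was 84.26, 43.44, 13.13, 25.14 and 53.5 in B1, B2, B3, B4 and B6 and 3.04, 3.65 and 2.05 in C2, A1 and A2. The groups did not overlap, and the cDKO values lay close together (log2 fold change -3.29 ± 0.51, adjusted p = 0.0176). Entpd1, encoding CD39, which degrades extracellular ATP, was 52.93, 30.42, 14.41, 20.67 and 34.26 in WT and 3.65, 1.76 and 2.15 in cDKO. It was the lower gene with the smallest adjusted p (-3.07 ± 0.37, adjusted p = 0.0129). Lag3, encoding an inhibitory receptor that binds MHC class II, was 196.1, 126.9, 49.28, 51.43 and 117.4 in WT and 24.19, 5.76 and 4.33 in cDKO (-3.30 ± 0.61, adjusted p = 0.0336). Again no values overlapped, and C2 was the highest cDKO library. Cd200, whose product engages an inhibitory receptor on myeloid cells, fell from a mean of 5.52 to 1.32 (-1.44 ± 0.30, adjusted p = 0.036). In contrast Nt5e, encoding CD73, which makes adenosine from AMP, rose from a mean of 6.24 to 21.28 (1.70 ± 0.29, adjusted p = 0.0202).

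Other inhibitory receptors did not pass the threshold. Pdcd1, encoding PD-1, was 258.92, 185.02, 56.52, 70.66 and 262.76 in WT and 42.9, 19.26 and 16.89 in cDKO. No values overlapped, and the adjusted p was 0.0626 (log2 fold change -2.47 ± 0.59). Tigit overlapped between the groups (86.16 to 373.34 against 114.16 to 218.77; -0.53 ± 0.45, adjusted p = 0.592), and so did Ctla4 (33.69 to 88.85 against 33.65 to 46.71; -0.62 ± 0.30, adjusted p = 0.283). Pdpn, encoding podoplanin, a glycoprotein with an inhibitory role on T cells, was 0.04 to 9.14 in WT and 0 to 2.56 in cDKO (-0.24 ± 0.73, adjusted p = 0.90). Procr, encoding the protein C receptor, averaged 0.952 and 0.197 and was not tested. Among 17 tested co-inhibitory genes, 3 fell and 0 rose (0.94% and 2.14% of all genes did), with a median log2 fold change of -1.14. In the list of IL-10 signals and ectonucleotidases, 13 genes were tested, 1 fell and 1 rose (Entpd1 and Nt5e), with a median of -0.38. Il10 itself averaged 0.874 and 0.47 and was not tested; its receptor chain Il10ra had a log2 fold change of -1.66 ± 0.39 (adjusted p = 0.0503). The 5 calls of these lists were all lost without A1 and without A2, and 1 (Entpd1) remained without B2, 3 without B1, 3 without B6, 4 without B4 and 3 with the CD3 scaling.

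The genes of 3 inflammatory chemokines fell. Ccl3, encoding the inflammatory chemokine MIP-1alpha, was 427.5, 297.6, 124.2, 196.4 and 127.7 in B1, B2, B3, B4 and B6 and 40.94, 4.47 and 2.4 in C2, A1 and A2. This was the largest fall of a called gene (log2 fold change -4.51 ± 0.81, adjusted p = 0.0336), and C2 stood well above A1 and A2. Ccl4, encoding the related MIP-1beta, averaged 259 ± 122 and 29.2 ± 21.9 (-3.19 ± 0.52, adjusted p = 0.0212), and Ccl5, encoding RANTES, 2314 and 718.5 (-1.73 ± 0.39, adjusted p = 0.0487). Cxcl10, a ligand of CXCR3, went the other way, with 1.53 to 4.84 in WT and 11.83 to 15.55 in cDKO (1.83 ± 0.28, adjusted p = 0.0146). Of 8 tested chemokine ligands, 3 fell and 1 rose (0.94% and 2.14% of all genes did), with a median of -1.88. The effector cytokine gene Ifng was 45.6, 34.12, 11.83, 35.05 and 32.04 in WT and 39.29, 1.65 and 4.71 in cDKO. Its value in C2 lay within the WT range, and it was not called (-1.83 ± 0.83, adjusted p = 0.275). Of 7 effector cytokine genes tested, limma called 0, with 2 at an unadjusted p under 0.05 (beside 2111 of all 11058 genes). The 4 chemokine calls were all lost without A1, without A2 and without B2, and 2 remained without B1, 2 without B4, 3 without B6 and 2 with the CD3 scaling. In the limma fit of 25 libraries against all 16 WT, 3 remained and Cxcl10 did not (adjusted p = 0.159).

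Genes that position T cells were called in both directions. Ccr7, the receptor for lymph node chemokines, was 167.7, 184.3, 201.7, 93.91 and 226.5 in WT and 549.4, 633.4 and 752.6 in cDKO. No values overlapped (log2 fold change 1.93 ± 0.26, adjusted p = 0.0129). S1pr1, the receptor that leads T cells out of tissue, rose from 52.4 ± 13.9 to 151 ± 18.8 (1.55 ± 0.23, adjusted p = 0.0146). Itgae, encoding the CD103 integrin chain of epithelial residence, rose as well (2.14 ± 0.47, adjusted p = 0.0425), as did Cxcr4, a bone marrow and stromal homing receptor (1.11 ± 0.24, adjusted p = 0.0406).

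In the same list 3 genes fell. Ccr2, a receptor for monocyte-attracting chemokines, was 16.8, 19.29, 13.4, 65.43 and 38.95 in WT and 3.84, 3.81 and 3.77 in cDKO. The cDKO values were nearly equal and all below WT (log2 fold change -2.48 ± 0.45, adjusted p = 0.0256). Cx3cr1, the fractalkine receptor of effector cells, had a log2 fold change of -3.03 ± 0.66 (adjusted p = 0.0487) and Itga1, encoding the collagen-binding CD49a chain, one of -1.49 ± 0.32 (adjusted p = 0.041). Cxcr6, a receptor of tissue-resident T cells, had a log2 fold change of -3.15 ± 0.69 without passing (adjusted p = 0.0508), with C2 (56.67) just above the lowest WT value of 56.36. In the whole list 21 genes were tested, 5 rose and 3 fell (2.14% and 0.94% of all genes did). The median of -0.48 was positive when only genes at 1 or more in all 8 libraries (0.26), or at 10 or more in 3 (0.14), were kept. The 7 calls named here were all lost without A1 and without A2, and 1 (Ccr7) remained without B2, 3 each without B1, B4 or B6, 6 without C2 and 1 (Cx3cr1) with the CD3 scaling.

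**Figure D4:**
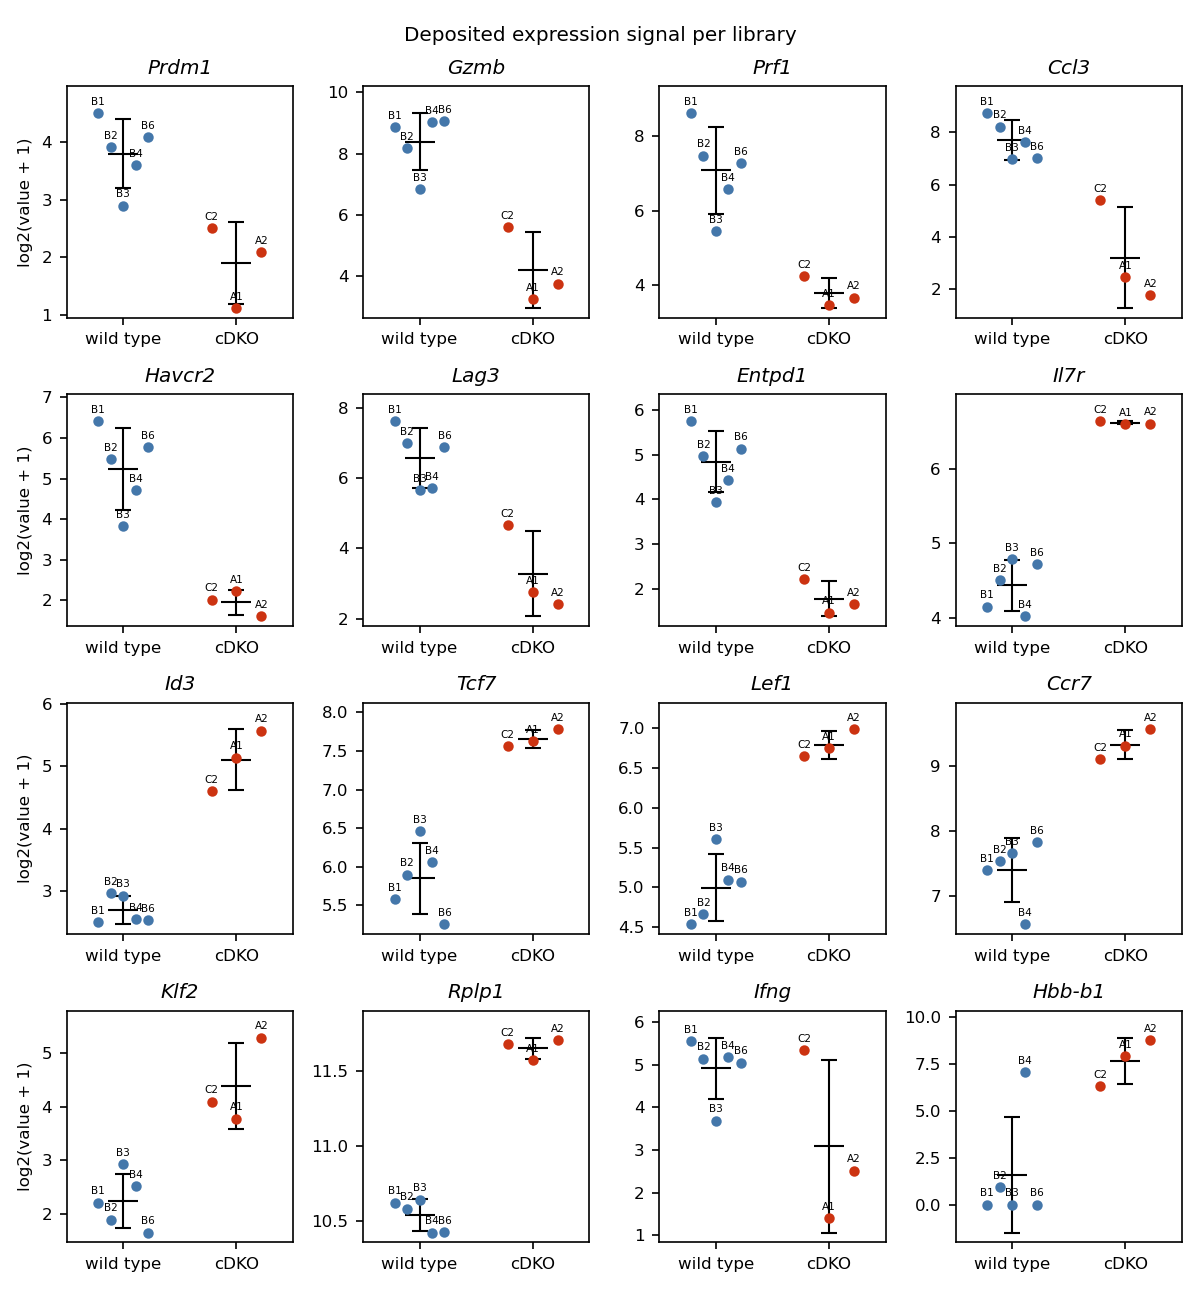
Points give the deposited signal of 16 genes in the 5 WT libraries (blue) and the 3 cDKO libraries (red); bars give the mean and SD of each group. Gzmb, Prf1, Ccl3, Havcr2, Lag3 and Entpd1 are lower in every cDKO library than in any WT library and Il7r, Id3, Tcf7, Lef1, Ccr7, Klf2 and Rplp1 are higher, while Ifng and Hbb-b1 overlap.

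Of the transcription factors of naive and stem-like T cells, 8 of 16 rose. Id3, an inhibitor of E proteins found in memory precursors, was 4.66, 6.81, 6.61, 4.88 and 4.82 in B1, B2, B3, B4 and B6 and 23.25, 34.26 and 46.64 in C2, A1 and A2. Every cDKO value was over 3 times the highest WT value (log2 fold change 2.41 ± 0.24, adjusted p = 0.0046). Tcf7, encoding TCF-1 of the stem-like pool, was 46.73, 58.58, 87.26, 65.87 and 37.17 in WT and 187.4, 196.6 and 218.5 in cDKO (1.80 ± 0.25, adjusted p = 0.013). Lef1, its close relative, rose from 32 ± 10.1 to 111 ± 13.8 (1.80 ± 0.24, adjusted p = 0.0129). No values of either gene overlapped, and B3 was the highest WT library for both.

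Further members of that list moved the same way. Satb1, a chromatin organiser of thymocytes and naive T cells, rose by 2.05 ± 0.33 (adjusted p = 0.0181) and Klf2, which controls S1pr1, by 2.15 ± 0.38 (adjusted p = 0.0222). Foxp1, a quiescence factor, rose by 1.14 ± 0.16 (adjusted p = 0.013), and Zeb1 and Klf3, repressors of the zinc finger class, by 1.34 and 1.51. In all, 8 of 16 tested members rose (2.14% of all genes did), 0 fell and 15 were above 0, with a median of 1.12 against -0.03 over all genes. Of the 8 calls, 1 (Id3) remained without A1, without A2 and with the CD3 scaling, 4 without B2, 6 without B1 and 7 without B6.

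Effector and exhaustion transcription factors were called in both directions, but the 2 higher calls were genes that passed the filter through cDKO alone. Irf8, an interferon regulatory factor of effector CD8+ and myeloid cells, was 97.47, 75.72, 29.79, 23.01 and 66.25 in WT and 8.33, 1.76 and 3.35 in cDKO. No values overlapped (log2 fold change -3.43 ± 0.54, adjusted p = 0.0184). Tox2, a relative of the exhaustion factor Tox, was 0, 0.12, 0, 0.84 and 0 in WT and 3.67, 2.17 and 3.18 in cDKO (1.78 ± 0.32, adjusted p = 0.0238). Batf3, a bZIP factor that is also a dendritic cell marker, was at most 0.59 in WT and 10.05, 2.63 and 2.16 in cDKO (2.09 ± 0.43, adjusted p = 0.0356), where the dendritic cell markers summed as given above. No WT value of Tox2 or Batf3 reached 1, so both were tested only because every cDKO value did. Their place above WT without overlap was therefore fixed by the filter. Tox itself was not called (-1.58 ± 0.42, adjusted p = 0.0777). Of 22 tested members 2 rose and 2 fell (Irf8 and Prdm1), where 2.14% and 0.94% of all genes did. Prdm1 is a deleted gene, so its fall is a check of the label and not a result for this list. Among the 22, 16 were negative and 13 had an unadjusted p under 0.05 (2111 of all 11058 genes did). The median of -0.44 was 0.02 with the CD3 scaling. Of these 4 calls, 0 remained without B2, 1 without B1 and 2 each without B4, without B6 or with the CD3 scaling. Without A1 or without A2, 2 of the 4 genes could be fitted and neither was called. In the fit of 25 libraries against all 16 WT, Irf8 and Prdm1 remained called, and Tox2 and Batf3 did not.

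The IL-7 and IL-4 receptor chains and a pair of feedback genes rose. Il7r, encoding the IL-7 receptor chain of naive and memory T cells, was 16.79, 21.74, 26.7, 15.28 and 25.32 in B1, B2, B3, B4 and B6 and 98.64, 95.99 and 96.47 in C2, A1 and A2. The 3 cDKO values lay within a few percent of each other, and Il7r had the smallest adjusted p of all genes, tied with Id3, Rgs10 and Rplp1 (log2 fold change 2.18 ± 0.20, adjusted p = 0.0046). It was called in 19 of 20 alternatives. Il4ra, the IL-4 receptor chain, rose from a mean of 30.7 to 109 (1.86 ± 0.27, adjusted p = 0.0131). The suppressors of cytokine signalling Socs1 and Socs3 rose by 1.18 ± 0.17 and 1.79 ± 0.31 (adjusted p = 0.013 and 0.0204). Of 14 tested cytokine receptors 2 rose and 8 were negative, and of 17 STAT and SOCS genes 2 rose, with 0 falls in either list. Over all genes 2.14% rose and 0.94% fell. The medians were -0.14 and 0.19, and that of the receptors was 0.32 with the CD3 scaling.

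Signalling genes next to the T cell receptor moved in part. Txk, a Tec family kinase, rose by 1.01 ± 0.19 (adjusted p = 0.0259), the only call among 24 genes of the receptor complex and its proximal kinases, whose median was -0.11 and 0.35 with the CD3 scaling. Cd3e, a chain of the receptor, was not called (-0.54 ± 0.32, adjusted p = 0.395). Dusp10, a phosphatase of stress kinases, rose by 1.88 ± 0.31 (adjusted p = 0.0182), and Rgs16, a GTPase activator that damps chemokine receptors, fell by 2.72 ± 0.56 (adjusted p = 0.041), 1 call each way among 14 signalling brakes. Tnfsf8, encoding CD30 ligand, rose by 1.32 ± 0.29 (adjusted p = 0.0424), the only call among 16 co-stimulatory genes, whose median was -0.64. Beside these lists, 2.14% of all genes rose and 0.94% fell. Tnfrsf9, encoding the activation receptor 4-1BB, had a log2 fold change of -2.90 ± 0.67 and was not called (adjusted p = 0.0605). Among the 8 calls from Il7r to Tnfsf8 in this account of signalling, 1 (Il7r) remained without A1 and without A2, 3 without B2, 5 without B1, 6 each without B4 or C2, 7 without B6 and 2 with the CD3 scaling.

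Of the AP-1 and immediate early genes, 5 of 20 rose. Btg1, an antiproliferative factor of resting lymphocytes, was 31.23 to 37.11 in WT and 76.62, 102.1 and 145.4 in cDKO (log2 fold change 1.55 ± 0.20, adjusted p = 0.0129). Zfp36l1, which promotes decay of AU-rich mRNAs, was 55.53 to 72.67 in WT and 132.2 to 160.3 in cDKO (1.17 ± 0.15, adjusted p = 0.0129). The WT values of both genes were narrow and far from the cDKO values. Jun and Junb, subunits of AP-1, rose by 1.28 ± 0.24 and 0.78 ± 0.18 (adjusted p = 0.0256 and 0.0441). Among the 20 genes 5 rose and 0 fell (2.14% and 0.94% of all genes did), and the median was 0.71. The fifth, Maff, belongs to the small Maf proteins, which dimerise with c-Maf. With Mafk (1.17 ± 0.23, adjusted p = 0.0325) and the ligand-gated factor Ahr (1.88 ± 0.39, adjusted p = 0.0357) it made 3 rises and 0 falls. These were among 8 tested Maf family members and partners, where Maf itself was not tested. Maff was 0.43 to 1.51 in WT and 2.59 to 6.19 in cDKO, and Ahr 0.12 to 2.1 and 3.2 to 8.44. Both passed the filter only with their cDKO values, which favoured a rise, so the count of 3 is partly a product of the filter.

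Survival genes moved in both directions. Bcl2, which protects naive and memory cells from apoptosis, rose from a mean of 19.17 to 54.82 (1.46 ± 0.21, adjusted p = 0.0131). Bbc3, encoding the pro-apoptotic Puma, rose as well, with 0.67 to 1.95 in WT and 4.42, 9.93 and 17.73 in cDKO (2.11 ± 0.38, adjusted p = 0.0236). Bak1, encoding a pore former of mitochondrial apoptosis, fell by 0.93 ± 0.20 (adjusted p = 0.041). These were the 3 calls among 15 tested Bcl2 family genes (3.08% of all genes were called), whose median was -0.23 and 0.03 with the CD3 scaling. Of the 10 calls in the early gene, Maf and Bcl2 families, 1 (Bcl2) remained without A1, 0 without A2, 2 without B2, 3 without B1, 4 without B4, 6 without B6 and 0 with the CD3 scaling. In the fit of 25 libraries against all 16 WT, 8 remained, and Maff and Ahr did not.

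Genes of cell division had mostly negative changes, with 6 past the threshold. Cdca8, encoding borealin of the chromosomal passenger complex, was 24.35 to 46.79 in WT and 19.37, 10.31 and 11.96 in cDKO (log2 fold change -1.27 ± 0.26, adjusted p = 0.0354). Ube2c, a ubiquitin conjugase of mitotic exit, fell by 0.91 ± 0.20 (adjusted p = 0.0427), Bub1b, a spindle checkpoint kinase, by 0.79 ± 0.18 (adjusted p = 0.0444), and the spindle and kinetochore genes Nusap1 and Nuf2 by 1.28 and 1.04. That made 5 falls among 30 tested mitosis genes (0.94% of all genes fell), and 29 of the 30 had a negative log2 fold change, with a median of -0.75. In S phase Pold1, the catalytic subunit of DNA polymerase delta, was the only call (-0.82 ± 0.18, adjusted p = 0.0434), with 29 of 30 negative and a median of -0.57. The medians were -0.36 and -0.16 with the CD3 scaling. None of the 6 calls remained without A1, A2, B2, B4 or B6 or with the CD3 scaling, 1 (Cdca8) remained without B1 and 5 without C2.

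Of the cytosolic ribosomal protein genes, 37 of 84 rose. Rplp1, encoding a stalk protein of the large subunit, was 1577, 1533, 1598, 1373 and 1377 in WT and 3279, 3045 and 3339 in cDKO. Neither group varied by more than a small part of the gap between them (log2 fold change 1.11 ± 0.12, adjusted p = 0.0046). Rpl12 rose by 1.01 ± 0.12 (adjusted p = 0.0129), and Rps19 and Rps24 of the small subunit by 0.88 and 0.96. Beside these 37 (2.14% of all genes rose), 0 fell and 81 were positive, with a median of 0.61; the called changes ran from 0.58 to 1.21. Many of these genes have near-identical copies, between which the authors' counting could split signal. For Rplp1, Rpl12, Rps19 and Rps24, 1 call (Rplp1) remained without A1, 0 without A2, 2 without B2 and 0 with the CD3 scaling.

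Other metabolic lists held few calls, beside 2.14% higher and 0.94% lower over all genes. Mitochondrial ribosomal genes gave 1 fall among 76 (Mrps6, -0.97 ± 0.18, adjusted p = 0.0236). Oxidative phosphorylation gave 0 calls by limma among 77 genes (14 at an unadjusted p under 0.05, beside 2111 of all 11058 genes). The proteasome gave 0 among 37 (8), and all 37 log2 fold changes were negative. The medians of these 3 lists, -0.21, -0.24 and -0.28, became 0.23, 0.22 and 0.18 with the CD3 scaling. Slc2a3, encoding the glucose carrier GLUT3, fell by 1.47 ± 0.30 (adjusted p = 0.0341), the serine synthesis enzyme Phgdh by 0.66 ± 0.15 (adjusted p = 0.0441) and the squalene synthase Fdft1 by 0.77 ± 0.17 (adjusted p = 0.0441), 1 call each among 21 glycolysis, 17 amino acid and 19 cholesterol genes. Odc1, the first enzyme of polyamine synthesis, rose by 1.37 ± 0.32 (adjusted p = 0.0481), the only call among 26 genes of ribosome biogenesis; in the fit of 25 libraries against all 16 WT its log2 fold change was -0.12. The cathepsins Ctsb and Ctsd, lysosomal proteases, fell by 0.85 ± 0.18 and 1.13 ± 0.18 (adjusted p = 0.036 and 0.0155), 2 calls among 15. Lgals1, encoding galectin-1, and the scaffold gene Ahnak fell by 1.29 and 0.97, 2 calls among 17 S100, annexin and related genes, all of them negative. Oas2, an antiviral sensor, rose by 1.63 ± 0.31 (adjusted p = 0.0273), 1 call among 25 type I interferon genes. It passed the filter only with its cDKO values. Of these 10 calls, 0 remained without A1, A2 or B2 or with the CD3 scaling, 3 without B1, 4 each without B4 or B6 and 8 without C2.

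Lists of the interferon gamma response (28 genes), chromatin repressors (20), heat shock and unfolded protein response (24), SLAM receptors (8), Gimap GTPases (8) and killer lectin-like receptors (14) held 0 calls by limma. At an unadjusted p under 0.05 they held 2, 6, 9, 1, 0 and 3 genes in that order, beside 2111 of all 11058 genes.

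**Figure D5:**
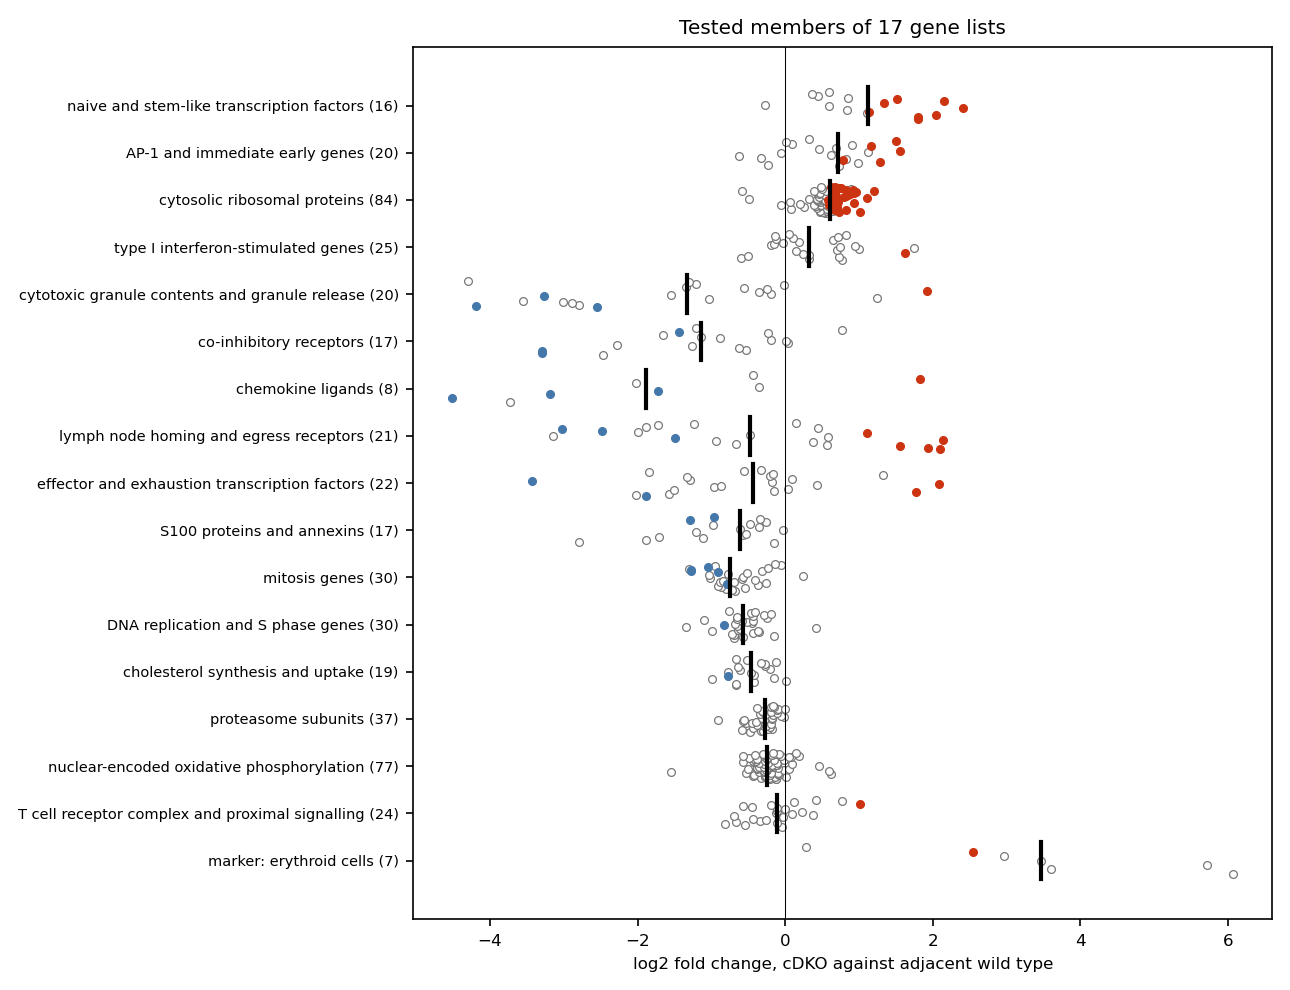
Each point is the log2 fold change of 1 tested gene in 17 of the lists, with the number tested in brackets; filled points were called higher (red) or lower (blue), open points were not called, and the black bar is the median. Naive factors (median 1.12) and ribosomal proteins (0.61) lie mostly to the right, and cytotoxic (-1.33), co-inhibitory (-1.14) and mitosis genes (-0.75) to the left.

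Genes outside the lists were among the most changed. Rgs10, a GTPase activator for heterotrimeric G proteins, was 21.98, 28.76, 30, 29.7 and 23.53 in WT and 113.9, 82.83 and 84.67 in cDKO (log2 fold change 1.77 ± 0.18, adjusted p = 0.0046). No values overlapped, and it was called in 19 of 20 alternatives. Ssh2, a phosphatase that activates the actin-severing cofilin, rose by 1.88 ± 0.20 (adjusted p = 0.0051) and Fam101b, an actin regulator, by 2.52 ± 0.39 (adjusted p = 0.0148). Syt6, of the synaptotagmin family, was at most 0.19 in WT and 2.91 to 5.11 in cDKO (2.15 ± 0.29, adjusted p = 0.0129). Taf4b, encoding a subunit of TFIID, was 1.02 to 2.47 in WT and 8.05 to 16.18 in cDKO (2.19 ± 0.29, adjusted p = 0.0129). Irs2, an adaptor of insulin and cytokine receptors, rose by 2.20 ± 0.36 (adjusted p = 0.0182). Gadd45a, a stress and DNA damage response gene, Donson, a replication fork gene, Klhdc2, a ubiquitin ligase adaptor, Trpc4ap, another, Rras2, a small GTPase, and Nsg2, a vesicle protein gene, rose by 1.95 to 2.46. The histone gene Hist1h2ap and the pseudogene Pisd-ps1 rose too, by 3.20 and 4.05, and neither was called in the fit of 25 libraries against all 16 WT. Both have near-identical copies, so their signal is uncertain. Syt6 and Hist1h2ap were under 1 in every WT library and passed the filter through cDKO alone, so their place above WT was fixed by it. Gadd45a and Pisd-ps1 reached 1 in fewer than 3 WT libraries, so they too needed cDKO values to pass.

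Among the falls, Cd70, encoding the ligand of CD27, was 10.33, 12.74, 2.58, 5.79 and 15.16 in WT and 0.28, 0.26 and 0.56 in cDKO (log2 fold change -2.74 ± 0.45, adjusted p = 0.0182). Epas1, encoding the hypoxia factor HIF-2alpha, fell by 2.66 ± 0.49 (adjusted p = 0.0256), as did the chromatin-bound factor Utf1 (2.67 ± 0.45, adjusted p = 0.0202) and the protease inhibitor Serpina3f (2.82 ± 0.53, adjusted p = 0.0286), which has close paralogs. These 4 genes did not overlap between the groups, which the rule that named them required. Of the 16 calls from Rgs10 to Serpina3f other than the histone and the pseudogene, the 12 rises kept 2 calls without A1, 1 without A2, 5 without B2, 8 each without B1 or B6, 9 without B4 and 3 with the CD3 scaling. In the fit of 25 libraries against all 16 WT the rises kept 10 calls, without Donson and Gadd45a. The 4 falls kept 0 without A1, A2 or B2, 3 each without B1, B4 or B6 and 2 with the CD3 scaling.

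Whether the double loss differed from loss of Prdm1 alone was tested as the cDKO change minus the Prdm1 cKO change, each against its own adjacent WT run (3 and 7 libraries for Prdm1 cKO and its WT), so that no control library is shared. By limma 0 genes differed (0% of 11058), with 1036 at an unadjusted p under 0.05; the smallest adjusted p was 0.201. This does not show that the changes are alike. The codes of Prdm1 cKO and its WT run all carry the letter A, so the letter differs between groups on the cDKO side only. In this difference the added loss of c-Maf and the code letter cannot be told apart. Gzmb averaged 378 in the WT run of Prdm1 cKO and 15 in Prdm1 cKO, a log2 change of -4.84 ± 0.57 beside -4.19 in cDKO, and the difference was 0.65 ± 0.82 (adjusted p = 0.857). Havcr2 changed by -2.66 ± 0.44 in Prdm1 cKO beside -3.29, a difference of -0.63 ± 0.63 (adjusted p = 0.809). Larger differences were estimated for Ccr2 (0.45 ± 0.44 in Prdm1 cKO beside -2.48, difference -2.93 ± 0.63, adjusted p = 0.201), Irf8 (-1.19 beside -3.43, difference -2.23 ± 0.67, adjusted p = 0.297) and Entpd1 (-1.27 beside -3.07, difference -1.81 ± 0.53, adjusted p = 0.275). Il7r changed by 1.09 ± 0.32 beside 2.18 (difference 1.08 ± 0.47, adjusted p = 0.475). Without C2, or without the Prdm1 cKO library A6, 18 genes differed (14 higher and 4 lower in cDKO), and without B3 6 did.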

How the data were processed

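Bulk CD8+ T cell lysates were cleaned on beads and amplified by an adapted SMART-Seq 2 method, per the labels' protocols. The submitters' processing notes name TopHat, RSEM, DESeq and the mouse build mm9; for each of these the version and settings were not given in the sources used here. As deposited by the authors, the data are 1 table of normalised signal per gene symbol, with 25 columns. The deposited signal is of unstated scale. Small values depend on gene length: for 21732 symbols with a known transcript length, the 10th percentile of nonzero signals was 0.39 for the shortest genes (5441 symbols) and 0.06 for the longest (5431). Depth is unknown, so no count test and no counting interval was made. Columns were assigned to groups by the genotype in their names; 0 columns belonged to no sample.

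Genes at 1 or more in at least 3 of the 8 libraries were fitted on log2(signal + 1) with limma 3.58.1 (empirical Bayes with trend and robust options) in R 4.3.3, with Benjamini-Hochberg adjustment over all 11058. Fold changes on this scale understate changes of low values. A gene under 1 in every WT library was tested only if all 3 cDKO values reached 1, which fixed its direction. A gene at 1 or more in fewer than 3 WT libraries also needed cDKO values to pass, which favoured a rise. Maff, Ahr, Oas2, Gadd45a and Pisd-ps1 were such genes. The difference between cDKO and Prdm1 cKO came from 1 fit of all 25 libraries with a mean for each genotype and column run. Prdm1 and Maf were compared by exact permutation. The fit was checked on simulated data. Named genes are the 15 largest non-overlapping calls each way, the 10 smallest adjusted p, the 4 smallest p of each list and a panel of T cell genes. The members and lists were chosen with earlier results of these data known. Promoters were matched by symbol to RefSeq's GRCm38.p6 table; 0 entries matched Lag3, and under 80% of the called genes matched, so motif shares of called genes were not used. Alternatives covered pseudocount, filter, scaling, limma options, WT set, covariates and leaving out each library. Of the homing genes called, 1 is not reported here.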

Additional observations from a re-analysis of the deposited data

Results flagged for a closer look

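In these genes 1 of the 5 WT libraries stood far from the other 4, by a gap of more than 0.71 of the group's range; chance flags about 1 in 20 groups. B4 was far above the others for Hbb-b1 (132.43), Itga1 (9.16), Pisd-ps1 (8.93), Slc4a1 (0.44) and Tox2 (0.84) and far below them for Dusp10 (8.49). B1 was far above for Rps19 (1248.83), Rps24 (859.88) and, with a value close to 0, Hist1h2ap (0.01). B6 was far above for Odc1 (27.38), and B2 for Syt6 (0.19) and Cxcr4 (28.95).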

How the results depend on the processing

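Against 341 calls (237 higher, 104 lower), limma called 79 (67 and 12) without the filter on low values, 29 (13 and 16) with the CD3 scaling and 196 (136 and 60) without the trend and robust options. With all 25 libraries in the fit it called 1500 (633 and 867) against all 16 WT libraries and 1013 (540 and 473) when column run was added as covariate; these fits change the libraries, the WT set or the covariate at once. It called 168 (125 and 43) with the macrophage and monocyte score and 0 (0 and 0) with the erythroid score. Higher genes made up 69.5% of calls as reported, 44.8% with the CD3 scaling, 42.2% in the fit of 25 libraries against all 16 WT and 53.3% in that with column run. Leaving out 1 library gave 3 (without A2) to 772 (without B3) calls, 3 to 378 higher and 0 to 394 lower. Of the 341 genes, in the fits of 25 libraries 298 were called against all 16 WT and 332 with column run, and 26 were called with the CD3 scaling. The other settings (pseudocounts of 0.1 and 10, stricter filters, median-of-ratios scaling) gave 288 to 401 calls. The cause of these changes was not tested. The difference from Prdm1 cKO gave 1 call (1 higher, 0 lower) with a pseudocount of 10, 1 (0 and 1) without the filter, and 0 to 18 (0 to 14 and 0 to 4) when 1 library was left out. The Prdm1 difference was -10.8, and -8.86 (without B1) to -12.7 (without B3) with 1 library left out. The Maf difference of -0.35 was -0.39 with all 16 WT libraries (exact permutation p = 0.0402, against 0.107). The log2 fold change of Odc1 turned from 1.37 to -0.12 with all 16 WT libraries, and that of Pdpn from -0.24 to between -0.60 (without A1) and 0.32 (without C2) with 1 library left out. No paired analysis was possible because the column names carry no replicate numbers.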
